A study of Mus musculus with 28 samples.

Results

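The intergenic H3.3 regions of mouse fibroblasts are stretches of DNA that carry a peak of the histone variant H3.3 and overlap no annotated gene feature. They were taken from the authors' table of 82893 peak regions as those with an HA-H3.3 peak in at least 1 of 2 replicates and a count of 0 for each annotation class, namely 3 kb upstream, 5'UTR, coding exon, intron, 3'UTR and 5 kb downstream. This gave 22242 regions, which is 26.8% of all regions, 30.1% of the 73889 regions with an H3.3 peak and 88.5% of the 25145 unannotated regions. The regions were thus chosen by the HA-H3.3 peaks and the annotation, and H3.3 values are given as a description with no test.

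All samples came from 1 immortalised line of mouse embryonic fibroblasts, NIH/3T3 Tet-On 3G, grown in serum. For HA-H3.3, 2 replicates were precipitated with an HA antibody from cells that carried an HA/FLAG-H3.3 construct and received doxycycline, which switches the construct on, and aphidicolin, which blocks DNA replication. The histone modifications H3K27ac, H3K4me3 and H3K9ac and the NuRD subunits RBBP4, MTA1, MBD2/3, HDAC2, HDAC1 and CHD4 were each precipitated once, from untransduced wild type cells that had neither the construct nor the drugs. The tagged H3.3 and the other libraries therefore come from differently treated cells. H3.3 knockdown (H3.3KD) cells carried OFP-H3.3A and GFP-H3.3B, and control cells carried GFP-Luciferase and OFP-Luciferase; MTA1 and RBBP4 were precipitated once from each, and polyadenylated RNA was sequenced from 3 H3.3KD clones and 2 control clones. Each clone is a single line, and nothing in the labels says that libraries of a group came from separate cultures in any other way. Sequential ChIP took HA/FLAG-H3.3 chromatin with a FLAG antibody and then with an RBBP4 antibody.

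H3.3 is the form of histone H3 that cells lay down outside of DNA replication, at active genes, at enhancers and, by other chaperones, in silent repeats. Intergenic H3.3 is often found at enhancers, which are stretches of DNA that raise the transcription of genes at a distance and carry H3K27ac when active, whereas H3K4me3 typically marks promoters. NuRD couples the nucleosome remodeller CHD4 with the deacetylases HDAC1 and HDAC2, the methyl-DNA-binding family members MBD2 or MBD3, the scaffold MTA1 and the histone chaperone RBBP4, which also belongs to other chromatin complexes.

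A microRNA gene is 1 kind of short transcript that can lie in such DNA, and the mature sequences below are those of microRNAs whose genes had an intergenic H3.3 region within 5 kb and are described further down. They come from RefSeq (build GRCm38.p6), and capitals mark the seed, bases 2 to 8, which pairs with target messenger RNAs. No sequence of the regions themselves is shown, because a genome of their build, mm9, was not used here.
mmu-miR-29a-3p: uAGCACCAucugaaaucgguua
mmu-miR-29b-3p: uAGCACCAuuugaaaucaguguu
mmu-miR-23a-3p: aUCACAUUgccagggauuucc
mmu-miR-27a-3p: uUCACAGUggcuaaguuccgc
mmu-miR-125b-5p: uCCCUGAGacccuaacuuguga
mmu-miR-21c: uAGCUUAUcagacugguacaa
mmu-let-7i-5p: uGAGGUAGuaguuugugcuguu
mmu-let-7d-5p: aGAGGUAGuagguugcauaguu
The miR-29a and miR-29b strands share the seed AGCACCA, and the let-7i and let-7d strands share the seed GAGGUAG. The other 4 seeds differ from one another.

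The regions were short and moderately covered. Their median length was 857 bp (quartiles 593 and 1317 bp), with extremes of 177 and 15526 bp, and together they spanned 24.2 Mb. Both HA-H3.3 replicates had a peak in 13084 of them (58.8%), replicate 1 alone in 2104 (9.46%) and replicate 2 alone in 7054 (31.7%). Each of the 8370 regions with a peak of a single library was covered by it over its whole length, so the deposited regions are unions of peaks and grow with the number and width of the peaks in them. For that reason peak shares are also given at matched length. The members just inside the rule on peaks had little of their length in a peak, the lowest share being 0.213 at chr6:127510547-127512163 (mm9; nearest gene Efcab4b), with HA-H3.3 levels of 1.27 in both replicates. Levels throughout are log2(RPKM + 1), RPKM being reads scaled to region length and library depth. Just inside the rule on annotation, the 5183 members within 10 kb of a gene locus had median HA-H3.3 levels of 1.94 and 2.07 in replicates 1 and 2. Just outside it, the 3693 H3.3 regions whose single feature lay in the 5 kb downstream class had 1.64 and 2.05, and the 3974 with a single feature in the 3 kb upstream class had 2.08 and 2.09.

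Library depth ran from 6.62 M reads for HDAC2 to 24.1 M for H3K4me3, and was 13.6 M in replicate 1 and 18.4 M in replicate 2 of HA-H3.3. The intergenic regions held 10.5% and 9.76% of all HA-H3.3 reads. The median member had 32 and 49 reads in the HA-H3.3 libraries, 7 to 12 in the subunit libraries and 11 to 18 in the modification libraries, so a single region's subunit level carries a counting error (CV) of 28.9% to 37.8%. Input levels were not analysed here. The fibroblast markers Col1a1, Col1a2, Col3a1, Thy1, Vim, S100a4, Pdgfrb and Fn1 summed to 8116 to 9605 FPKM in the 3 H3.3KD clones and 6444 to 7092 FPKM in the 2 control clones. Sums over the epithelial, endothelial, haematopoietic, skeletal muscle and neural marker lists stayed at or below 55.8 FPKM in every clone. Epcam, Myod1 and Neurod1 were at 0 in all clones, but other markers of these lists were not. The highest clone had 53.8 FPKM for Acta1, 14.8 for Cd14, 10.9 for Cd74, 10.5 for Tek, 7.34 for Des, 6.89 for Cdh5 and 5.81 for Krt14.

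The H3.3 level of intergenic regions lay close to that of other H3.3 regions, except for exons or gene ends in replicate 1. Its median was 1.96 in replicate 1 and 2.04 in replicate 2, against 1.87 and 2.06 in the 32203 H3.3 regions that lie only in introns. In the 9941 H3.3 regions at exons or gene ends the medians were 1.57 and 2.05, and in the 9503 H3.3 regions at annotated promoters they were 2.06 and 2.11. The replicates differed in how they ordered the classes: intergenic DNA stood above introns in replicate 1 and below them in replicate 2, while promoters were highest in both. Across all members the levels of the replicates correlated with Pearson's r of 0.64 and Spearman's rho of 0.57 (n = 22242 regions, which are not independent replicates and share counting error and length), and among members with a peak in both with 0.73 and 0.66. Replicate 2 exceeded replicate 1 by a median of 0.081 on the log2 scale, and 71.1% of members differed by less than 0.5. Among the 13084 members with a peak in both replicates the order turned. Their median difference, replicate 2 minus replicate 1, was -0.066, and replicate 2 was higher in 42.7% of them.

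**Figure D1:**
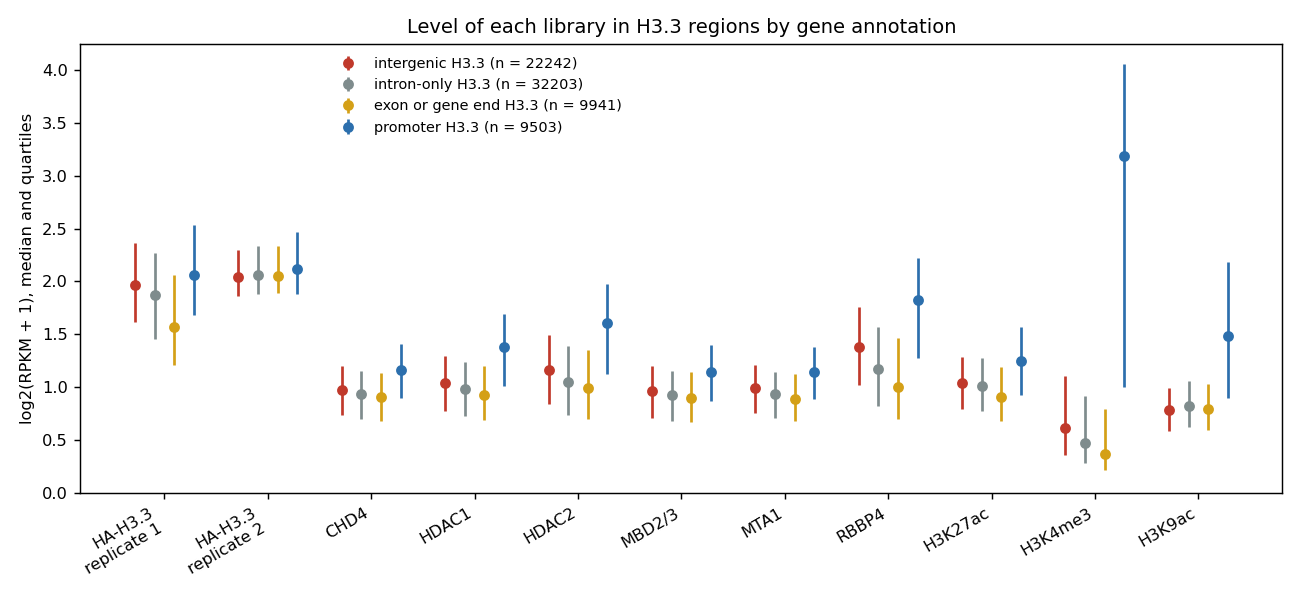
Median level, log2(RPKM + 1), with quartiles as bars, of each of 11 libraries in the 4 classes of H3.3 regions. Intergenic regions had HA-H3.3 medians of 1.96 and 2.04, close to the other classes except exons or gene ends in replicate 1, at 1.57. Their H3K4me3 median was 0.61, against 3.19 at promoters.

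Members with a peak in only 1 replicate had lower levels in the other one, which the split by peaks fixes in part. The 7054 regions with a peak in replicate 2 alone had a median level of 1.93 in that replicate and 1.45 in replicate 1, and the 2104 with a peak in replicate 1 alone had 2.00 in it and 1.61 in replicate 2. In the 2903 unannotated regions without an H3.3 peak, which entered the table through a subunit peak, the medians were 1.01 in replicate 1 and 1.02 in replicate 2, a lower level that the choice of regions fixes in part. The members were also longer, with medians of 620 bp (replicate 2 alone) and 478 bp (replicate 1 alone), against 298 bp in the regions without an H3.3 peak. The one-replicate members carried fewer other peaks than the members with both. RBBP4 had a peak in 6.92% of the replicate 2 set and 9.55% of the replicate 1 set, against 40.1% of members with both, and H3K27ac in 5.54% and 3.18%, against 17.6%.

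RBBP4 was the subunit found most often in intergenic H3.3 regions, followed by HDAC2, while CHD4, the remodelling ATPase, was found least often. RBBP4 had a peak in 5940 members (26.7%, exact binomial 95% interval 26.1% to 27.3%), against a background of 31.0% over all 82893 regions. Among H3.3 regions the RBBP4 share was 20.4% in introns, 18.8% at exons or gene ends and 56.9% at promoters. HDAC2 had a peak in 2169 members (9.75%; background 13.4%), against 8.10% in introns and 34.4% at promoters. HDAC1 had a peak in 760 members (3.42%; background 6.32%), and the share in introns, 3.41%, was within its interval of 3.18% to 3.66%. MTA1 had a peak in 588 members (2.64%; background 3.64%), against 1.87% in introns. MBD2/3 had 343 (1.54%; background 3.17%) and CHD4 had 278 (1.25%; background 2.43%). Intervals cover counting error only. With 1 library per subunit there is no replicate check and no test, and the background includes every region that entered the table through a subunit peak without H3.3. All 6 shares in intergenic regions were far below those at promoters.

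At least 1 subunit had a peak in 6335 members (28.5%, interval 27.9% to 29.1%; background 36.5%), against 22.2% of the intronic, 20.7% of the exon or gene end and 60.4% of the promoter H3.3 regions. The share was 9.86% when at least 0.5 of the region had to lie in the peak. Of the 3882 members with a single subunit, 3514 (90.5%) had RBBP4. RBBP4 also had a peak in 81.0% to 91.4% of the members that held a peak of any of the other 5 subunits. Peaks of 2 subunits lay in 1570 members, of 3 in 580, of 4 in 219, of 5 in 64 and of all 6 in 20. In all, 303 members (1.36%) had 4 or more. The same counts, and the RBBP4 shares among them, are not given here over all regions. RBBP4 had the most peaks of the 6 subunits over all regions too, at 31.0%, against 13.4% for HDAC2.

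**Figure D2:**
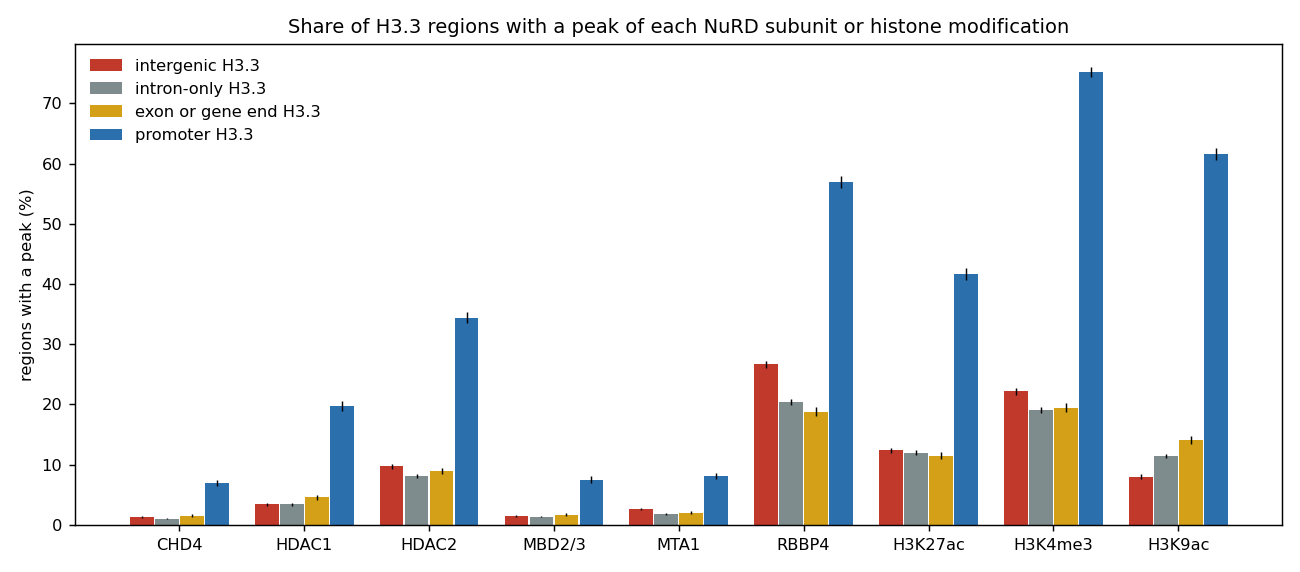
Share of H3.3 regions with a peak of each NuRD subunit or histone modification in the 4 annotation classes, with exact binomial 95% intervals as error bars (counting error only). Intergenic regions had RBBP4 peaks in 26.7% and H3K4me3 peaks in 22.2%, and promoters had 56.9% and 75.2%.

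Members with more subunit peaks had more H3.3 and more histone modification peaks. The median HA-H3.3 level was 1.85 and 1.98 (replicates 1 and 2) in the 15907 members without a subunit peak, 2.29 and 2.24 with 1 subunit, 2.63 and 2.43 with 2, and 3.51 and 3.12 in the 20 members with all 6. Overlap with an H3K27ac peak stood at 5.73%, 19.6%, 36.5% and 75% in the same 4 sets. Median length moved the same way, with 727 bp in the set without a subunit peak and 2885.5 bp in the set with all 6. Among members of 1472 bp or more the order was kept: H3.3 levels were 2.26 and 2.31 without a subunit peak (n = 1326, median 1782.5 bp), 2.59 and 2.47 with 1, 2.83 and 2.61 with 2, and 3.07 and 2.79 with 3 or more (n = 699, median 2621 bp). In those long members H3K27ac peaks were present in 16.8%, 30.8%, 45.0% and 64.9%. Length still differed between these sets, and its part in the pattern beyond this split was not tested.

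**Figure D3:**
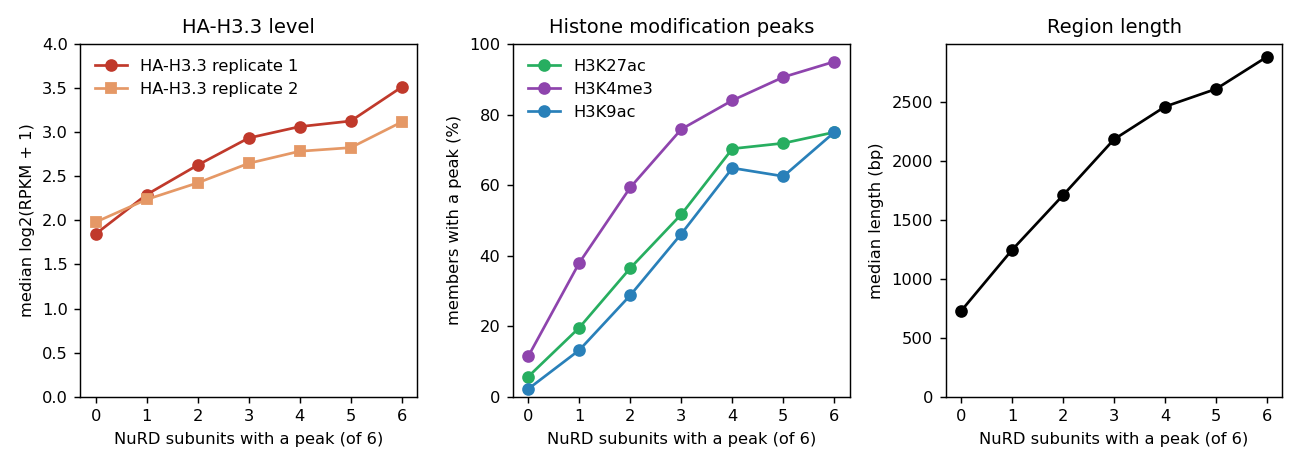
Intergenic H3.3 regions by the number of NuRD subunits with a peak: median HA-H3.3 level of both replicates, log2(RPKM + 1), share with each histone modification peak in percent, and median length in bp. The H3.3 level of replicate 1 was 1.85 without a subunit and 3.51 with all 6, and length was 727 and 2885.5 bp.

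Most intergenic H3.3 regions had none of the 3 histone modification peaks, and H3K4me3 was the most frequent. H3K27ac overlapped 2760 members (12.4%, interval 12.0% to 12.8%; background 16.1%), a share close to the 12.0% of introns and 11.5% of exons or gene ends and below the 41.6% of promoters. H3K4me3 overlapped 4936 members (22.2%, 21.6% to 22.7%; background 29.5%), against 19.1% in introns and 75.2% at promoters. H3K9ac, an acetylation found mostly at promoters, overlapped 1787 members (8.03%, 7.68% to 8.40%; background 19.1%), against 11.4% in introns, 14.1% at exons or gene ends and 61.6% at promoters. The intergenic share was thus the highest of the 3 classes outside promoters for H3K4me3 and the lowest for H3K9ac. Unannotated regions without an H3.3 peak, which were shorter, had 4.68% for H3K27ac, 21.9% for H3K4me3 and 5.55% for H3K9ac. The H3K27ac share was 3.66% with peaks that score at least 100 and 0.971% where 0.5 of the region had to be covered, and the H3K9ac share was 4.54% and 4.98%.

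At matched length, the RBBP4 and H3K4me3 shares of intergenic regions remained above those of intronic ones and the H3K9ac share below. In 5 classes of equal size by the members' length, from 177 to 552 bp up to 1472 to 15526 bp, RBBP4 peaks lay in 3.92%, 10.2%, 18.6%, 33.1% and 67.8% of intergenic regions, against 2.13%, 6.35%, 12.8%, 22.7% and 50.8% of intronic regions of the same lengths. H3K4me3 peaks lay in 10.3% of the shortest and 48.3% of the longest intergenic class, against 9.22% and 36.5% in introns. For H3K9ac the shares were 1.70% and 24.2%, against 3.45% and 25.0%, and the interval of the longest class, 22.9% to 25.5%, held the intronic share. H3K27ac had no fixed order: the shares were 2.38%, 4.43%, 7.15%, 13.0% and 35.1% in intergenic regions, against 1.96%, 4.56%, 7.68%, 12.8% and 29.0% in introns. MTA1 and HDAC2 shares were also above the intronic ones in each class, with 9.20% and 32.9% of the longest intergenic regions, against 5.68% and 23.8% in introns. Each of these comparisons rests on 1 library per factor.

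**Figure D4:**
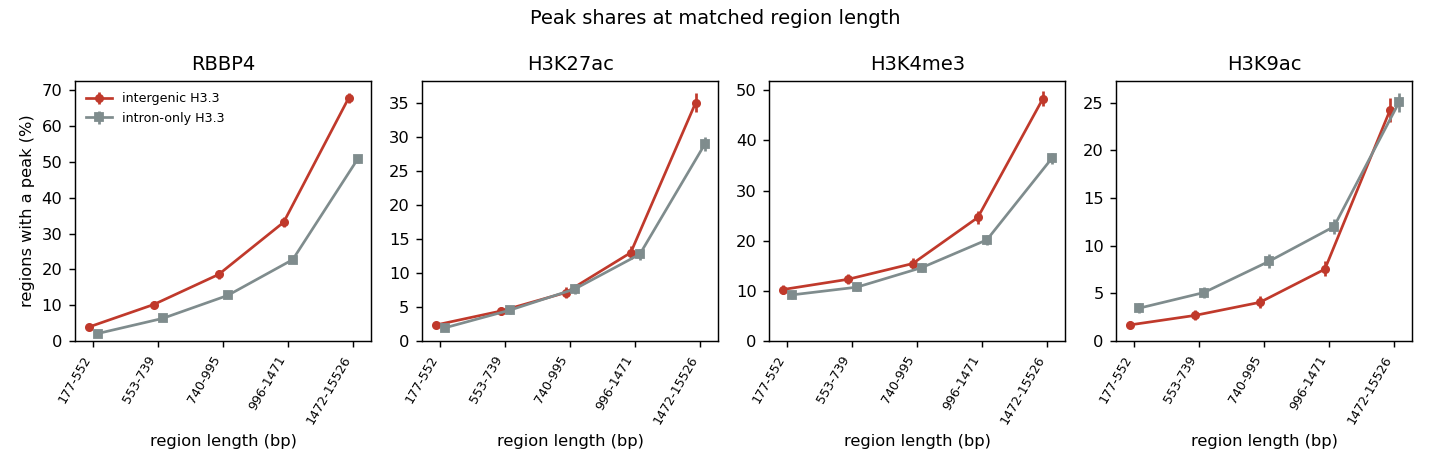
Share of regions with an RBBP4, H3K27ac, H3K4me3 or H3K9ac peak in 5 classes of region length, for intergenic and intron-only H3.3 regions, with exact binomial 95% intervals (counting error only). In the longest class RBBP4 was at 67.8% in intergenic and 50.8% in intronic regions.

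By combination of marks, 1434 members (6.45%) overlapped both H3K27ac and H3K4me3, 1326 (5.96%) H3K27ac without H3K4me3, 3502 (15.7%) H3K4me3 without H3K27ac, 72 (0.324%) H3K9ac alone and 15908 (71.5%) none of the 3. The set with both marks was the longest, with a median of 1995 bp, and 92.3% of it had an H3.3 peak in both replicates. It had HA-H3.3 levels of 2.74 and 2.52, and 85.7% of it held a subunit peak. In the set with no mark the median length was 757 bp, 50.7% had H3.3 peaks in both replicates, the levels were 1.87 and 1.99, and 16.2% held a subunit peak. The sets with only H3K27ac and only H3K4me3 lay between them and near one another, with RBBP4 peaks in 44.8% and 50.9% and CHD4 peaks in 1.51% and 2.60%. Of the 303 members with 4 or more subunits, 192 were in the set with both marks.

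H3K27ac peaks, the usual sign of an active enhancer, divided the members by their subunit levels too, but this was not particular to H3K27ac. Of members with H3K27ac, 51.96% also overlapped H3K4me3, against 17.98% of those without, and H3K9ac was more frequent in them as well. The median RBBP4 level was 1.66 with H3K27ac but not H3K4me3, and 1.69 with H3K4me3 but not H3K27ac. In members with none of the 3 marks it was 1.24. The 2760 members with an H3K27ac peak had a median RBBP4 level of 1.93, against 1.31 in the 19482 members without, a difference of 0.62 on the log2 scale. For HDAC2 the medians were 1.59 with and 1.11 without, for HDAC1 1.33 and 1.00, for MTA1 1.23 and 0.95, and for MBD2/3 1.19 and 0.93. The CHD4 median was 0.26 higher with than without. HA-H3.3 levels were 2.45 with and 1.93 without in replicate 1, and 2.39 with and 2.01 without in replicate 2. An RBBP4 peak was present in 64.9% of members with H3K27ac and 21.3% without, an HDAC2 peak in 35.0% and 6.17%, and an HDAC1 peak in 14.4% and 1.86%; both HDACs remove histone acetylation. Members with H3K27ac were longer, with medians of 1637.5 and 801 bp. Within the 5 length classes the RBBP4 level difference was 0.41, 0.28, 0.45, 0.40 and 0.41, and the share with an RBBP4 peak was 10.4% with and 3.76% without H3K27ac in the shortest class and 84.1% and 58.9% in the longest. At matched length the H3.3 difference was small except in the longest class: replicate 1 was at 1.77 with and 1.75 without H3K27ac in the shortest class, 1.95 and 1.88 in the middle class, and 2.81 and 2.51 in the longest. Replicate 2 was at 1.85 in both sets of the shortest class and at 2.63 with and 2.41 without in the longest. Over members with at least 10 reads in the library, the level differences by H3K27ac were smaller: 0.36 for RBBP4, 0.19 for HDAC2, 0.13 for HDAC1, 0.13 for MTA1, 0.088 for CHD4 and 0.060 for MBD2/3. The split by H3K27ac is not particular to intergenic DNA. In intronic H3.3 regions of the same 5 length classes, without a limit on reads, the RBBP4 level difference was 0.58, 0.55, 0.73, 0.64 and 0.54. Each of these was larger than in the members.

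The regions lay mostly at a distance from genes, which their choice by annotation fixes in part, and often near one another. The same distances and gaps over other regions are not given here. The nearest gene locus of the same build was at a median of 24.6 kb (quartiles 10.6 and 60.1 kb), 311 members lay within 3 kb of a locus, and 1 overlapped a locus. The farthest was 1.51 Mb away. Gaps between neighbouring members had a median of 9.86 kb, and 37.6% were under 5 kb. H3K9ac peaks became rarer with distance, at 9.61% within 10 kb, 8.50% from 10 to 50 kb, 6.57% from 50 to 200 kb and 3.78% beyond 200 kb, and H3K4me3 peaks stood at 25.1%, 22.9%, 18.8% and 18.7%. RBBP4 peaks showed no such order, with 26.2%, 26.8%, 27.4% and 24.5%. H3K27ac was at 13.2%, 12.9%, 12.0% and 6.54%. The 1192 members beyond 200 kb were also shorter, with a median of 693 bp, against 904 bp within 10 kb.

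On chromosome X, where the sources used here do not give the number of copies, intergenic regions had the lowest median level of 9 of the 11 libraries. RBBP4 was at 0.93 on X, against 1.24 on the lowest autosome, and H3K27ac at 0.57, against 0.89. H3.3 did not follow in both replicates, with 1.99 in replicate 1, inside the autosomal range of 1.91 to 2.02, and 1.83 in replicate 2, below the lowest autosome at 1.94. Chromosome X had 249 members, which is 22.5% of its 1105 H3.3 regions, while the autosomal share ran from 24.0% on chromosome 19 to 38.4% on chromosome 13.

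The densest stretch of 200 kb held 42 members at chr2:167533530-167729704 (mm9), next to Ptpn1, which encodes a tyrosine phosphatase. There 26 members overlapped H3K27ac, 9 H3K4me3 and 17 an RBBP4 peak, and the median H3.3 levels were 1.89 and 2.29. A stretch of 41 members, chr11:79533395-79735118, lay by Mir365-2 and Utp6, and had H3K27ac in 7. Next were 37 members by Med13l, a subunit of the Mediator kinase module, at chr5:118763869-118967638, with H3K27ac in 12. Groups of 35 lay by Zfp36l1, an RNA-decay factor, at chr12:80926831-81124022, by Vegfa, the angiogenic growth factor, at chr17:45882292-46082548, and by Mir31 at chr4:88513267-88690183. H3K27ac was present in 8, 6 and 15 of these, and H3K4me3 in 6, 0 and 17. Dense groups thus ranged widely in their share of marked regions.

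The longest intergenic regions lay at the Mir29a and Mir29b-1 genes on chromosome 6, chosen after their values were seen. The region chr6:31000076-31013892 (13817 bp, mm9) spans both microRNA loci, whose transcript is longer than the annotated hairpins. It had HA-H3.3 levels of 2.70 and 3.25 from 1028 and 2165 reads, an RBBP4 level of 1.44 and an H3K27ac level of 1.03, and it overlapped none of the 3 modification peaks. Its neighbour chr6:31013923-31029448 (15526 bp) had 3.05 and 3.49, with an H3K27ac level of 1.31 and an H3K27ac peak. A further member, 16.8 to 21.6 kb from the Mir29a start, had 3.58 and 3.42 and overlapped both H3K27ac and H3K4me3. These 3 neighbours ran from -12.6 to 21.6 kb with high H3.3 throughout, while H3K4me3 was low in the 2 longest members, at 0.49 and 0.60. On 1 side of them it was at 2.29, 3.88 and 4.39 in the 3 members from 16.8 kb to 24.6 kb, and on the other side at 2.72 in the member from -25.4 to -24.2 kb, which overlapped both H3K27ac and H3K4me3, and at 1.60 in the member from -51.0 to -49.9 kb, which overlapped H3K4me3. Within 60 kb on either side lay 9 members, of which 5 overlapped H3K27ac and 8 an RBBP4 peak. Both microRNA genes are listed at 0 FPKM in all 5 RNA libraries, where hairpins of this size are poorly captured.

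**Figure D5:**
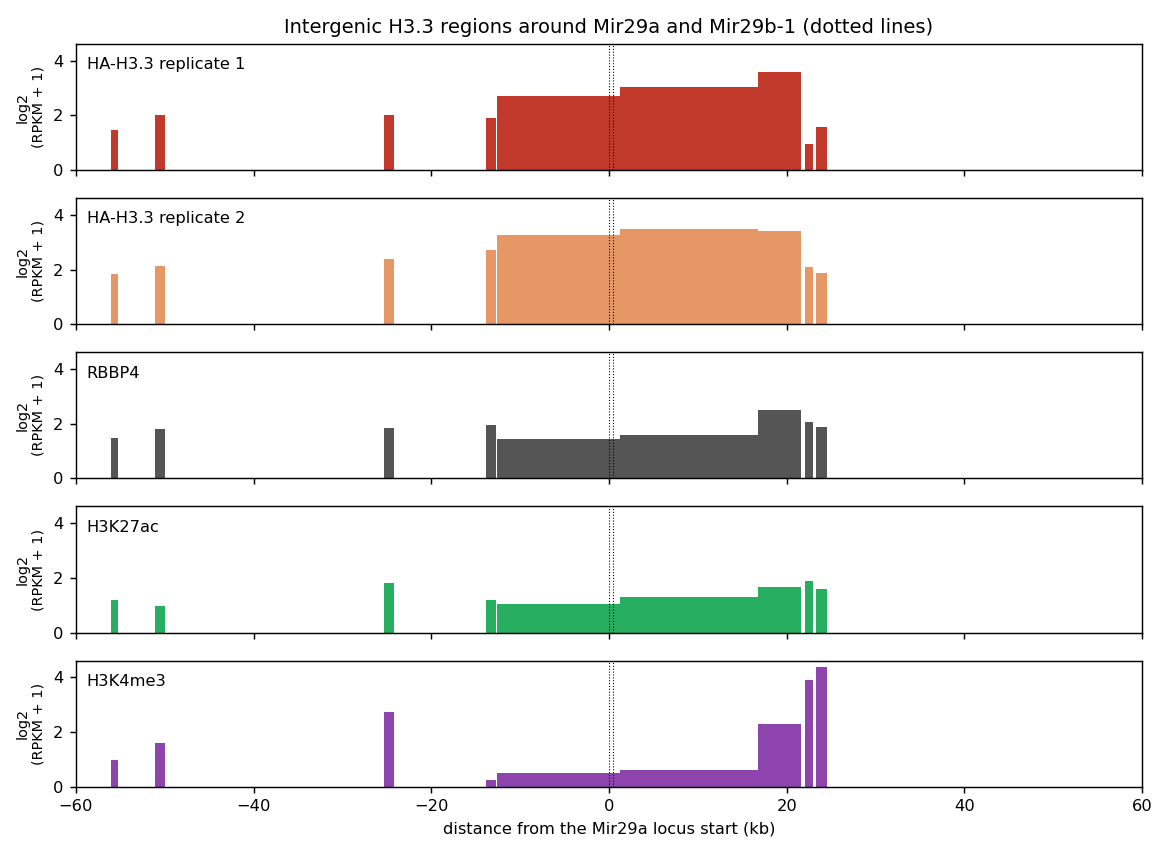
Levels, log2(RPKM + 1), of HA-H3.3, RBBP4, H3K27ac and H3K4me3 in the 9 intergenic H3.3 regions within 60 kb of the Mir29a locus start; each bar spans a region, its height is the region's level, and dotted lines mark Mir29a and Mir29b-1. The 3 widest regions, from -12.6 to 21.6 kb, have HA-H3.3 levels of 2.70, 3.05 and 3.58 in replicate 1, and H3K4me3 reaches 3.88 and 4.39 in the members beyond them.

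Some other microRNA genes also had intergenic H3.3 nearby. Of 1131 microRNA loci, 43 had a member within 5 kb, and 39 of the 43 were matched to RefSeq sequences. The same share over all gene loci is not given here. There were 36 such members, of which 5 overlapped H3K27ac and 13 a subunit peak, against 12.4% and 28.5% of all members. The 36 members had median H3.3 levels of 1.82 and 2.31. At the Mir23a, Mir27a and Mir24-2 cluster, a member of 3939 bp (chr8:86724707-86728645, 3.77 kb from Mir23a) had H3.3 levels of 2.78 and 2.90, an H3K4me3 level of 4.22, both H3K27ac and H3K4me3 peaks, and peaks of 4 subunits. The member 2.65 kb from Mir125b-2 had 2.71 and 2.31 with an H3K4me3 peak and 1 subunit, and the one by Mir21c 3.02 and 2.49 with no mark and 1 subunit. The members by Mirlet7i and Mirlet7d had 2.25 and 2.97, and 1.75 and 2.55, with no mark and no subunit. The member 2.81 kb from Mirlet7bhg, with an H3.3 peak in replicate 2 only, also had no mark and no subunit. Among all members 71.5% had none of the 3 marks, so unmarked neighbours do not set these let-7 loci apart. No link between a seed and the marks was tested. Mir29a and Mir29b-1 lie in a single region.

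Among the 6 members with the highest H3.3 level, 3 had all 6 subunits and high levels in nearly every library. At chr11:108872729-108873649, 60.6 kb from Axin2, a Wnt pathway feedback gene, the levels were 4.64 and 4.50 for HA-H3.3, 4.07 for CHD4, 4.35 for HDAC1, 5.31 for HDAC2, 4.29 for MBD2/3, 3.99 for MTA1 and 4.63 for RBBP4. H3K4me3 was at 3.54 there, while H3K27ac was at 1.56. The short regions chr3:5860311-5860922 (612 bp, 284 kb from Pex2) and chr17:36368112-36368634 (523 bp, near Rpp21) had the same make-up, with H3.3 levels of 4.45 and 4.21, and of 4.14 and 4.10. At chr6:3151298-3151676 (379 bp) CHD4, HDAC1, MBD2/3 and MTA1 reached their highest level in a member with their peak, 4.14, 4.59, 4.45 and 4.22, with H3.3 at 3.52 and 3.35. Libraries of unlike targets were high together at these 4 short regions, and whether the input was high there too was not tested.

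The other 3 members with the highest H3.3 were longer and had peaks of 2 to 4 subunits. The region chr16:5134018-5137752 (3735 bp), 1.44 kb from Ppl, which encodes periplakin, had H3.3 levels of 4.50 and 3.82 from 1099 and 900 reads, RBBP4 at 3.34 and CHD4 at 1.80, with peaks of 3 subunits and both H3K27ac and H3K4me3. The region chr11:112481183-112483987 (2805 bp, nearest locus BC006965) had 4.44 and 3.63, peaks of 4 subunits and both marks. The region chr1:36086351-36088428 (2078 bp), 36.8 kb from Hs6st1, a heparan sulfate sulfotransferase, had 4.46 and 3.55, with 2 subunits and H3K4me3 but no H3K27ac peak. In all 6 members with the highest H3.3, replicate 1 exceeded replicate 2.

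The highest H3K27ac levels were 2.80 at chr1:197067473-197068281 (64.6 kb from Cr2), 2.66 at chr6:127825408-127828614 (9.03 kb from Tspan11, a tetraspanin), and 2.61 at both chr6:47596468-47601663 (3.26 kb from the small RNA gene Rn4.5s) and chr8:19784423-19785277. All 4 also overlapped H3K4me3. The Tspan11 region had H3.3 levels of 3.31 and 3.22 and 3 subunits, while the region on chromosome 8 had 1.58 and 1.06, from 23 and 17 reads, with all 6 subunits.

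Few intergenic H3.3 regions held an MTA1 or RBBP4 peak of the H3.3KD or control cells, whose peak lists are short. The median width of the MTA1 peaks was 861.5 bp in H3.3KD and 150 bp in control cells. For RBBP4 it was 191 and 221 bp. Wider peaks meet more regions at an overlap of 1 bp, so the MTA1 counts are not like for like. MTA1 peaks overlapped 94 members in H3.3KD cells (0.423%, interval 0.342% to 0.517%; background 0.923%) and 82 in control cells (0.369%, 0.293% to 0.457%; background 0.759%). RBBP4 peaks overlapped 100 members in H3.3KD cells (0.450%, 0.366% to 0.547%; background 2.43%) and 124 in control cells (0.558%, 0.464% to 0.664%; background 2.50%). The intervals cover counting error over regions only, and with 1 library each they do not compare H3.3KD with control. Promoter H3.3 regions had RBBP4 peaks in 10.2% in H3.3KD cells and 9.53% in control cells, and intronic ones in 1.11% and 1.26%. With peaks that score at least 100, the members' shares were 0.0584% in H3.3KD and 0.0495% in control cells for MTA1, and 0.121% and 0.184% for RBBP4.

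The members bound in H3.3KD cells were partly those bound in control cells. For MTA1, 22 members were in both sets, which is 23.4% of the H3.3KD set and 26.8% of the control set, and for RBBP4 it was 46 members, 46.0% and 37.1%. Overlap followed the score of the control peak: of members with an RBBP4 control score of at least 100, 29 of 41 (70.7%) also had an H3.3KD peak, against 9 of 38 (23.7%) with a score of 60 to 100 and 8 of 45 (17.8%) below 60. For MTA1 it was 7 of 11, 9 of 29 and 6 of 42. RBBP4 peaks of unmodified cells were present in 85 of the 100 H3.3KD members and 102 of the 124 control members, whereas MTA1 peaks of unmodified cells were present in 29 of 94 and 16 of 82. The depth of these 4 libraries is unknown, their lists held 904 (MTA1, H3.3KD), 1703 (MTA1, control), 2919 (RBBP4, H3.3KD) and 3561 (RBBP4, control) peaks, and with 1 library each there is no replicate check, so depth and knockdown cannot be told apart.

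At single regions the authors' peak scores were lower in H3.3KD than in control cells at most of the members with the highest control scores, and higher for 1 protein at 1 of them. The region near Axin2 had an MTA1 score of 265.53 in H3.3KD and 548.89 in control cells, and RBBP4 scores of 263.72 and 1017.39. At chr5:77086219-77087938, 10.7 kb from Cep135, a centriole gene, the RBBP4 scores were 323.36 and 1032.26 and the MTA1 scores 53.66 and 159.57. The region chr3:148651452-148654186 near Lphn2 had RBBP4 scores of 80.03 and 1005.53, and chr11:67267555-67268948 near Gas7 had 271.01 and 943.92. The region chr11:116926987-116930003, 8.09 kb from 2810008D09Rik, had no H3.3KD peak of either protein, with control scores of 247.2 for MTA1 and 201.26 for RBBP4. At the region near Pex2 the MTA1 scores were 187.29 in H3.3KD and 158.65 in control cells, and the RBBP4 scores 90.3 and 336.56. A score grows with depth, and these regions were picked for a high control score, so neither order is a result about the knockdown. No member overlapped any of the 6 peaks of the sequential FLAG and RBBP4 ChIP.

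Genes nearest to intergenic H3.3 regions were more often expressed than genes at large. The members had 6586 nearest genes, with a median of 4.97 FPKM over the control clones and 62.0% at 1 FPKM or more, against 0.707 FPKM and 48.2% over all 23951 gene symbols. The genes nearest to most members were Marcks, a cytoskeletal substrate of protein kinase C (54 members), Trib2, a pseudokinase (45), Tbl1xr1, a corepressor subunit (42), Cxcl12, a chemokine (40), Klf4, a transcription factor (40), and Zfp608 (39). H3K27ac peaks were present in 9 of the 40 members by Klf4, 4 of those by Tbl1xr1, 2 by Trib2, 1 by Marcks and none by Cxcl12 or Zfp608. RBBP4 peaks lay in 14 members each by Klf4 and Tbl1xr1, 13 by Trib2, 9 by Zfp608 and 7 each by Marcks and Cxcl12.

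The targeted genes were lower in the knockdown clones, to unequal degrees. H3f3a had 71.8, 35.6 and 5.05 FPKM in H3.3KD clones 1 to 3, against 128 and 143 FPKM in control clones 1 and 2. H3f3b had 144, 104 and 51.7 FPKM in H3.3KD clones, against 249 and 237 FPKM in control clones. The groups did not overlap for either gene, clone 3 being the lowest, and neither passed limma's test over all genes (adjusted p = 0.516 for H3f3a and 0.469 for H3f3b, n = 3 and 2 clones). How many of all genes separate the clone groups in this way is not given here.

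RNA of genes near intergenic H3.3 regions was compared between the 3 H3.3KD and 2 control clones with limma on log2(FPKM + 1). Of the 950 tested genes nearest to a member with an H3K27ac peak within 50 kb, 0 passed at an adjusted p under 0.05 (background 0.0341%, 4 of 11728 genes). At an unadjusted p under 0.05, 30 were higher (background 3.50%) and 80 lower (background 6.31%), 11.6% in all against 9.81% of all genes. The balance of directions depends on the scaling: after quantile normalization 45 of the 950 were higher and 69 lower, and over all genes 557 were higher and 492 lower, against 410 higher and 740 lower without it. Of the genes near H3K27ac-marked members, 1 passed without control clone 2 and 3 passed with no filter on low values. The 4 genes that passed, Snord73a, Mir6948, Mir6993 and Mir1907, are small RNA genes listed at 0 FPKM in all clones of 1 group, and none of them was nearest to a member within 50 kb. The median difference, H3.3KD minus control, was -0.16 for the 950 genes, against -0.098 for all genes. It was -0.14, -0.12 and -0.14 in clones 1 to 3, against -0.13, -0.083 and -0.063 for all genes, with the 2 control clones shared by the 3 values. Without control clone 2 the medians were -0.10 for the genes near H3K27ac-marked members and -0.095 for all genes, so most of the gap rests on that clone. After quantile normalization the medians were -0.059 for the 950 genes and -0.0065 for all genes. For the 3966 genes nearest to any member within 50 kb the median was -0.12, and 0 passed, with 130 higher and 271 lower at an unadjusted p under 0.05. In RNA from bulk clones, fewer cells of a kind and less RNA per cell cannot be told apart.

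Of the genes near H3K27ac-marked members with the smallest p, none passed the test, and their values are given as such. Anapc13, a subunit of the anaphase-promoting complex with 8 members, had 200, 123 and 156 FPKM in H3.3KD clones, against 60.6 and 53.7 FPKM in control clones (log2 difference 1.44 ± 0.26 SE, limma adjusted p = 0.401). Malat1, a nuclear long noncoding RNA with 5 members, 3 of them with H3K27ac, had 37.2, 37.0 and 73.2 FPKM, against 15.0 and 15.8 FPKM in control clones. Ly6e, a membrane protein gene, had 212, 173 and 148 FPKM in H3.3KD clones, against 31.3 and 68.7 FPKM in control clones. Yes1, a Src family kinase, and Trub1, a pseudouridine synthase, had log2 differences of 1.05 ± 0.21 and 0.90 ± 0.20. In the 3 genes listed by clone, every H3.3KD clone was above both control clones, an order that the choice by smallest p largely fixes.

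On the lower side, Brinp1 had 1.97, 2.05 and 1.97 FPKM in H3.3KD clones, against 8.14 and 6.49 FPKM in control clones (log2 difference -1.46 ± 0.19 SE, limma adjusted p = 0.248). Krt80, a keratin gene with 7 members, 5 of them with H3K27ac and 6 with an RBBP4 peak, had 1.53, 3.47 and 3.11 FPKM, against 15.2 and 14.4 FPKM in control clones (-2.14 ± 0.29, adjusted p = 0.280). Pim1, a serine/threonine kinase gene, had 3.68, 5.12 and 4.79 FPKM in H3.3KD clones, against 10.4 and 12.0 FPKM in control clones. Zfpm1, a GATA cofactor with 17 members, had 8.24, 10.1 and 7.63 FPKM, against 17.6 and 18.7 FPKM in control clones, and Cdk20 a log2 difference of -1.32 ± 0.22. The H3.3KD clones of the 4 genes listed by clone were all below both control clones, which the choice by smallest p largely fixes. With 5 clones in all, no adjusted p came under 0.05.

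Most fibroblast matrix genes of the list used here were nearest to an intergenic H3.3 region. As background for this and the lists below, 6586 of all 23951 gene symbols were nearest to a member. Counts of members per gene were not adjusted for the intergenic space around the gene. Members were nearest to 15 of the 17 genes of that list, 129 in all, of which 29 (22.5%) overlapped H3K27ac and 42 (32.6%) an RBBP4 peak, against 12.4% and 26.7% of all members. Tnc, a matrix glycoprotein, had 25 members with 7 H3K27ac peaks, Thbs2, a thrombospondin, 20 with 7, and Col1a2, a chain of type I collagen, 8 with 3 and H3.3 medians of 2.84 and 2.50. Thbs2 had 6.91, 13.7 and 15.1 FPKM in H3.3KD clones, against 48.8 and 124 FPKM in control clones (log2 difference -2.68 ± 0.51 SE, limma adjusted p = 0.401). Sparc, a matrix-binding glycoprotein, had 1314, 1046 and 1051 FPKM in H3.3KD clones, against 504 and 657 FPKM in control clones (0.97 ± 0.22, adjusted p = 0.428). In both genes the clone groups did not overlap, in opposite directions, and the share of all genes that do so is not given here. Of the 16 tested genes of the list 0 passed, 9 had a negative difference, and the median was -0.086, against -0.098 for all genes.

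The AP-1 and serum response genes, most of which encode transcription factors, had 113 members at 11 of 17 genes. Of these members, 27 (23.9%) overlapped H3K27ac and 37 (32.7%) an RBBP4 peak. Klf4 had 40 members and Jun, a core AP-1 subunit, 24, with 9 H3K27ac peaks each and 10 RBBP4 peaks at Jun. The members by Jun had median H3.3 levels of 2.36 and 2.46. Jun had 40.3, 41.6 and 52.8 FPKM in H3.3KD clones, against 56.3 and 41.9 FPKM in control clones, so the groups overlapped. Genes that dampen MAP kinase signalling had 66 members at 8 of 9 genes, 12 (18.2%) with H3K27ac and 25 (37.9%) with RBBP4. Dusp6, an ERK phosphatase gene, had 16 and Dusp1 11, with 3 and 4 H3K27ac peaks. Contractile and YAP target genes had 35 members at 6 of 9 genes, 3 (8.57%) with H3K27ac, and lineage factors of other tissues 27 at 7 of 15 genes, 5 (18.5%) with H3K27ac. In the 4 lists 0 genes passed limma's test, out of 17, 9, 9 and 2 tested; the medians were -0.18, -0.52, 0.59 and -0.30, against -0.098 for all genes. Lists were chosen with earlier results of these data known, so their shares are a description.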

How the data were processed

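Chromatin immunoprecipitation and RNA sequencing of 28 samples were used in the form the submitters deposited. The build was mm9 and the tools were MACS2, Cuffdiff, Cufflinks, TopHat, bedtools and Bowtie, per the submitters' processing notes; their roles, the handling of duplicates and any input subtraction are not stated in the sources. The authors' deposited level table is on a log2 scale, log2(RPKM + 1): 100% of values under 100 reads then came out as whole reads within 0.05, and these reads served for depth only. The deposited coverage table gives, per region, the fraction in each library's peaks and counts of gene features. The deposited peak lists carry a score per peak, and peaks of these lists were matched to regions by at least 1 bp. The sequential ChIP list, called with MACS 2.1.1.20160309 per the file headers, holds pileup signal, −log10 p and q-values and fold enrichment as deposited, of which only positions were used. The RNA tables hold FPKM per gene as deposited by the authors, with no counts, so depth is unknown, and 24457 entries were summed to 23951 symbols.

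Coordinates are mm9, 1-based. Members were compared with the other H3.3 classes by medians and shares with exact binomial (Clopper-Pearson) 95% intervals. H3.3KD and control clones were compared with limma 3.58.1 in R 4.3.3 (lmFit, eBayes with trend, two-sided, Benjamini-Hochberg) on log2(FPKM + 1), over the 11728 genes whose mean FPKM was 1 or more; fold changes on this scale understate the change of low genes. The test was run on simulated data with known changes first. The members and gene lists were chosen with earlier results of these data known. Regions were named by rule: the highest H3.3, H3K27ac and subunit levels, the most subunits, the highest control scores, the lowest coverage, none on chromosome 18; genes were named as the nearest to these or to most members, those of smallest p near H3K27ac-marked members, and list members. The 2 longest regions, the dense stretches and the microRNA loci were added after their values were seen. Alternatives covered peak coverage and score, either H3.3 replicate, pseudocounts, low-value filters, quantile normalization and each clone left out. Motif and base content were not analysed here.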

Additional observations from a re-analysis of the deposited data

How the results depend on the processing

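No alternative reversed the sign of the median RNA difference near H3K27ac-marked members or of a level difference by H3K27ac. The median difference between the HA-H3.3 replicates did turn among members with peaks in both. Of the main results, 44 values moved and 17 did not. Of the subunit and modification level differences, 14 moved and 7 did not. These differences were larger with a pseudocount of 0.1 and smaller with at least 10 reads. Requiring H3.3 peaks in both replicates left 13084 members, with a subunit peak in 42.4%, H3K27ac in 17.6%, H3K4me3 in 30.5% and H3K9ac in 12.0%; without either HA-H3.3 replicate these shares ran from 30.4% to 38.0%, 13.4% to 15.6%, 23.0% to 28.2% and 8.57% to 10.8%. With at least 0.5 of the region in a peak, the subunit share was 9.86%. With 0.5 of the region covered, H3K27ac was at 0.971%, H3K4me3 at 17.1% and H3K9ac at 4.98%. With scores of at least 100 the shares were 3.66%, 17.8% and 4.54%, MTA1 was at 0.0584% (H3.3KD) and 0.0495% (control), and RBBP4 at 0.121% and 0.184%. The level difference by H3K27ac on log2(RPKM + 0.1) was 0.65 for HA-H3.3 replicate 1 and 0.88 for RBBP4, and 0.36 for RBBP4 with at least 10 reads. For RNA, 56 genes passed with no filter on low values, 8 to 30 with a clone left out, 0 with clone number as a replicate block and 0 without microRNA and small nucleolar RNA genes, an alternative chosen after seeing the data. The called genes were 1 higher and 3 lower with all clones, and 12 higher and 6 lower without H3.3KD clone 1. Among all genes at an unadjusted p under 0.05, 410 were higher and 740 lower, but 557 and 492 after quantile normalization. Without the small RNA genes, 1221 genes had an unadjusted p under 0.05, and with the block 504. Clone numbers do not pair the clones: same-numbered deviations correlated at -0.25 and -0.10. The median RNA difference of genes near H3K27ac-marked members, -0.16, was -0.17 on log2(FPKM + 0.1), -0.023 with no filter, -0.059 after quantile normalization, -0.14 with the block and -0.19 to -0.10 with a clone left out; without control clone 2 it was -0.10, near the -0.095 of all genes. Subunit depth of 7 to 12 reads in the median member limits any statement on a single region.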
